A study of Mus musculus with 12 samples.

Results

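This report covers 36 genes of sugar breakdown in the mouse atrium: the glycolytic enzymes, the glucose and lactate transporters, the pyruvate dehydrogenase kinases and the enzymes of glycogen. They were taken from a list of names. A gene counted as measured where a probe on the array carried its current or an older symbol, and where several did, the brightest one on average stood for the gene. This gave 32 of the 36 genes, among 17646 named genes in all. Gpi1, Pfkfb1, Eno1 and Slc16a3 were not analysed here. The RNA came from the atria of male mice, with 6 animals in each of 2 groups, hybridised to Illumina Sentrix Mouse-6 beadchips. Tbx3 mice were double transgenic (Cre4-CT): Cre recombinase under Nppa control (Nppa-Cre4) activated the T-box repressor Tbx3 from the CT transgene in the atria. Control mice carried Nppa-Cre4 (Cre4) only, so both groups expressed Cre, and a group with CT alone was not analysed here. Nppa is active in atrial muscle cells, whereas the RNA came from whole atria with all their cell types. The ages of the mice are not given in the labels.

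Glycolysis splits glucose into pyruvate in the cytosol. Glucose enters through facilitative transporters, hexokinase traps it by phosphorylation, phosphofructokinase sets the pace, and the later steps yield ATP and pyruvate. Lactate dehydrogenase interconverts pyruvate and lactate, pyruvate dehydrogenase kinases limit the entry of pyruvate into the citrate cycle, and glycogen serves as a store of glucose inside the cell. Many steps have one isozyme typical of muscle and another found in most tissues. Adult heart muscle relies mainly on fatty acids, and the cells of the conduction system are known for rich glycogen.

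Values are log2 levels after quantile normalization, reading the deposited table as natural logs. Were the table in base 2, every change given here would shrink by a factor of 0.693. Levels of different probes cannot be set against each other, so brightness is given as the percentile of a probe's mean among all 46114 probes. Markers were checked against the atrial label. Myl7, the atrial myosin light chain, lay at 14.47 in Control and 14.22 in Tbx3 arrays. Of 6 ventricular genes, Irx4 was at the 0.9th percentile and Hey2 at the 45.5th, while Myl3 was at the 96.5th and Myh7 at the 93.7th, with overlapping groups. Myl2, the ventricular light chain, rose from 6.15 to 7.01 without overlap (log2 change 0.86, adjusted p = 1.95e-05), and Kcnd2 fell by 0.49 (adjusted p = 0.00829). The brighter probe of the targeted gene Tbx3 ran from 6.26 to 6.79 in Control and from 5.98 to 6.44 in Tbx3 arrays. Against the label it was lower in the Tbx3 group and passed (log2 change -0.42, 1.34-fold, adjusted p = 0.0263), and the second Tbx3 probe had 0.02. Neither probe shows the transgene, and where they lie relative to it is not known here. Several marker lists of other cells moved with the groups, but not all. The mean of 8 measured erythroid genes ran from 8.47 to 9.95 in Control and from 9.67 to 10.55 in Tbx3 arrays, with 8 changes above 0 and 1 past the test. The mean of 10 fibroblast genes ran from 9.66 to 10.10 and from 10.05 to 10.59, with 5 genes risen. The mean of 9 cardiomyocyte genes ran from 13.03 to 13.20 and from 12.62 to 12.99, with 4 fallen, Nppa among them. The mean of 12 fast skeletal muscle genes ran from 6.35 to 6.71 and from 5.77 to 5.96, with 4 fallen. These were Tnni2 (log2 change -3.28), Atp2a1 (-1.72), Ckm (-0.97) and Acta1 (-0.95), while Myh1 and Myh4, which define fast fibres, were dim, at percentiles 25.1 and 3.5. The mean of 6 smooth muscle genes ran from 7.81 to 8.07 and from 8.10 to 8.47, with 3 risen (Myh11, Acta2 and Tagln) and 1 fallen (Smtn). The mean of 8 adipocyte genes ran from 5.45 to 5.62 and from 5.69 to 5.85, with 1 risen (Cidea, log2 change 1.86). The median change of that list was 0.04, with 5 changes above 0 and 3 below. Fabp4 had -0.35, so the shift of the adipocyte mean rests on Cidea. The mean of 7 endothelial genes ran from 8.24 to 8.41 and from 8.25 to 8.41, with 0 called. The mean of 6 leukocyte genes ran from 6.21 to 6.53 and from 6.10 to 6.65, also with 0 called. In whole tissue, fewer cells of a type and less RNA per cell cannot be told apart.

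In the atria of Tbx3 mice 4 of the 32 genes changed and 28 did not pass. Pgam1, Pfkp and Slc2a1 rose in the Tbx3 atria and Pfkfb2 fell. The test was limma with Benjamini-Hochberg adjustment over all probes, at an adjusted p of 0.05. The 4 genes are 12.5% of those measured, against 5.96% of all named genes and 3.45% of all probes. Members are bright, however, and of the named genes above the 85th percentile of brightness 15.4% were called, so the share among the members is near that of genes of like brightness. In direction, 3 genes (9.38%) rose where 2.97% of all named genes did, and 1 (3.12%) fell where 2.99% did. The median log2 change was 0.005 over the members and -0.003 over all named genes, and the median absolute change was 0.155 against 0.098. Without adjustment 10 of the 32 members had a p under 0.05, and the share of all named genes at that cutoff was not computed. Groups did not overlap for 3 members (9.38%), Slc2a1, Pfkfb2 and Pygm, against 4.04% of all named genes. The count was 2 without any one of Control arrays 2 and 6 and Tbx3 arrays 1 and 3, namely Pfkfb2 and Pgam1. It was 8 when probes below the median brightness were left out, which added Hk2, Pfkl, Pdk2 and, at the very threshold, Hk1. Without Control array 4 and Tbx3 array 6 together, which earlier work on these data had doubted, it was 3, with Pfkp lost (adjusted p = 0.0769).

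**Figure D1:**
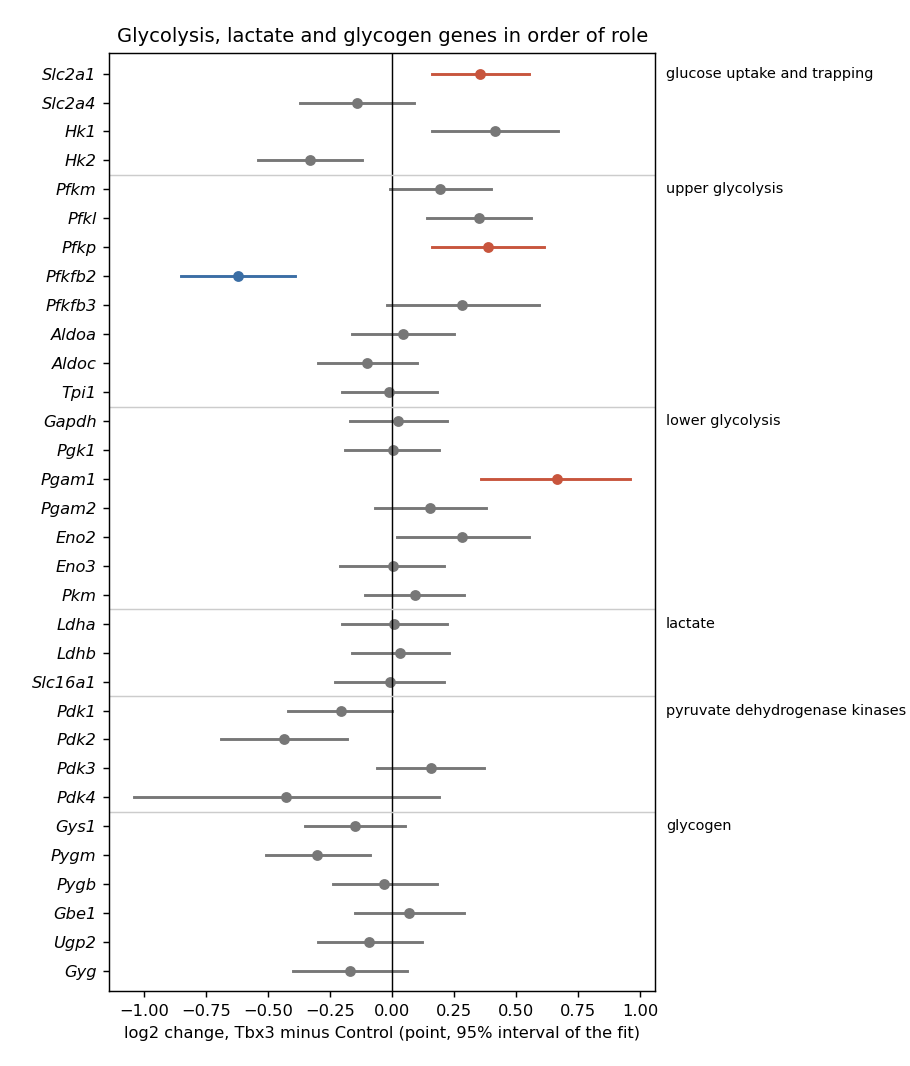
Log2 change of each of the 32 genes, Tbx3 minus Control, in order of role on the vertical axis. Points are the fitted changes, lines their 95% intervals, red the 3 genes that rose, blue the 1 that fell and grey those that did not pass. Aldoa, Tpi1, Gapdh, Pgk1, Eno3, Pkm, Ldha, Ldhb, Slc16a1, Pygb, Gbe1 and Ugp2 lie within 0.1 of 0.

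At the entry of glucose, the transporters and hexokinases of most tissues had positive changes and those typical of muscle negative ones. Slc2a1 encodes GLUT1, the transporter that works without insulin. Its levels were 7.23, 7.05, 6.92, 7.34, 6.95 and 7.03 in Control arrays 1 to 6 and 7.40, 7.47, 7.43, 7.41, 7.55 and 7.39 in Tbx3 arrays 1 to 6. Every Tbx3 array lay above every Control array, with only 0.05 between the nearest ones. The gene rose 1.28-fold, by 0.36 on the log2 scale (SE 0.10, adjusted p = 0.0343). Dropping any one of 9 arrays ended the call (adjusted p up to 0.0916), the exceptions being Control 1, Control 4 and Tbx3 6. Adjusting for the erythroid mean ended it too (log2 change 0.42, adjusted p = 0.0615). The change was thus not smaller with that adjustment. With the fibroblast and cardiomyocyte means it was 0.37 and 0.40 (adjusted p of 0.788 and 0.211). Slc2a4, which encodes the insulin-responsive GLUT4 of muscle and fat, had overlapping groups, from 8.25 to 8.84 in Control and from 8.26 to 8.81 in Tbx3 arrays (log2 change -0.14, adjusted p = 0.736).

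Hk1 and Hk2, the hexokinase of most tissues and that of insulin-sensitive muscle, both missed the threshold with changes of opposite sign. Hk1 levels were 9.52, 9.74, 10.40, 9.83, 10.11 and 9.84 in Control and 10.26, 10.27, 10.32, 10.07, 10.34 and 10.66 in Tbx3 arrays. Only Control arrays 3 and 5 reached the Tbx3 range (log2 change 0.41, SE 0.12, adjusted p = 0.0633). A dimmer Hk1 probe, at the 85.4th percentile, did pass, with a log2 change of 0.52 (SE 0.12, adjusted p = 0.00695). The third Hk1 probe, at the 67.7th percentile, had 0.16 (adjusted p = 0.746). With the mean of the 3 probes the gene passed at 0.37 (adjusted p = 0.0204). Hk2 levels were 10.93, 10.97, 10.85, 10.86, 11.04 and 11.10 in Control and 10.46, 10.89, 10.81, 10.54, 10.46 and 10.61 in Tbx3 arrays. Tbx3 array 2 alone lay inside the Control range and the other 5 below it (log2 change -0.33, SE 0.10, adjusted p = 0.0715).

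**Figure D2:**
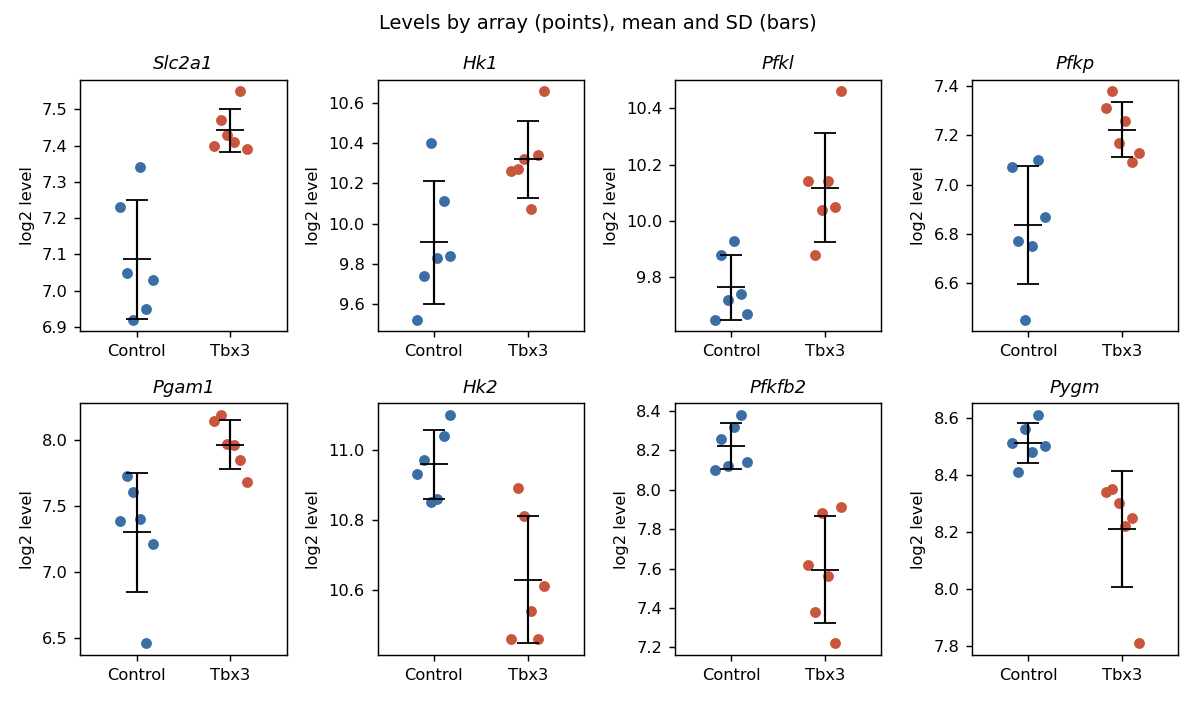
Log2 level by array for 8 genes, Control in blue and Tbx3 in red. Points are arrays and bars the mean and SD of the 6 arrays of a group, and each panel has its own vertical scale, which does not start at 0. The groups do not overlap for Slc2a1, Pfkfb2 and Pygm, and the lowest Pgam1 value, 6.46, is Control array 5.

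At the phosphofructokinase step, the muscle subunit and the other subunits all had changes above 0, and only Pfkp passed. Pfkp, the platelet-type subunit, had levels of 7.07, 6.77, 6.45, 6.75, 7.10 and 6.87 in Control and 7.31, 7.38, 7.17, 7.26, 7.09 and 7.13 in Tbx3 arrays. The groups overlapped through Control array 5 and Tbx3 array 5 alone. The rise was 1.31-fold, 0.39 on the log2 scale (SE 0.11, adjusted p = 0.0414). Dropping any one of 8 arrays ended the call, Control 1, Control 5, Tbx3 5 and Tbx3 6 being the exceptions (adjusted p up to 0.136). Adjusting for the erythroid, fibroblast or cardiomyocyte mean gave 0.38, 0.33 and 0.45, none of which passed (adjusted p of 0.214, 0.897 and 0.212). Of the 5 Pfkp probes the other 4, at percentiles 77.9, 59.0, 34.6 and 3.5, had changes of -0.06, 0.29, -0.10 and 0.13. With the mean of all 5, dim ones included, the change was 0.13 (adjusted p = 0.538). Pfkl, the liver-type subunit, stood at 9.77 ± 0.12 in Control and 10.12 ± 0.19 in Tbx3 arrays (SD, n = 6 each), with a log2 change of 0.35 (adjusted p = 0.0538). The muscle subunit Pfkm, at the 99.6th percentile, had 0.19 (adjusted p = 0.455).

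Pfkfb2 was the member that fell. It encodes the heart isozyme of the enzyme that makes and removes fructose 2,6-bisphosphate, the activator of phosphofructokinase. Its levels were 8.10, 8.26, 8.12, 8.32, 8.38 and 8.14 in Control and 7.62, 7.38, 7.88, 7.56, 7.22 and 7.91 in Tbx3 arrays. All Tbx3 arrays lay below all Control arrays, and the fall was 1.54-fold (log2 change -0.62, SE 0.11, adjusted p = 0.000759). This call held without any single array (adjusted p up to 0.00403) and after adjusting for the erythroid mean (-0.58, adjusted p = 0.0214). Adjusting for the fibroblast mean (-0.52, adjusted p = 0.607) or for the cardiomyocyte mean without Nppa (-0.61, adjusted p = 0.0546) ended it. The 2 dimmer Pfkfb2 probes, at percentiles 70.7 and 24.9, had changes of -0.04 and -0.21 and did not pass. The mean of the 3 changed by -0.29 (adjusted p = 0.046). Pfkfb3, the inducible isozyme of many tissues, ran from 5.74 to 6.87 in Control and from 6.31 to 7.17 in Tbx3 arrays (log2 change 0.28, adjusted p = 0.483). Of the remaining enzymes of upper glycolysis, Aldoa and Tpi1 had log2 changes of 0.04 and -0.01 with intervals from -0.16 to 0.25 and from -0.20 to 0.18. Aldoc, the brain-type aldolase, was dim, at the 62.9th percentile, with -0.10.

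Of the 7 measured genes of lower glycolysis, Pgam1 rose, 6 did not pass and no change was below 0. Pgam1 encodes the phosphoglycerate mutase of most tissues. Its levels were 7.39, 7.73, 7.61, 7.40, 6.46 and 7.21 in Control and 8.14, 8.19, 7.97, 7.96, 7.85 and 7.68 in Tbx3 arrays. Control array 5 was far below the others, and only Control array 2 reached into the Tbx3 range, above Tbx3 array 6. Pgam1 was 1.58-fold higher, 0.66 on the log2 scale (SE 0.15, adjusted p = 0.00607), and passed. The call held without any single array (adjusted p up to 0.0204), and adjusting for the erythroid, fibroblast or cardiomyocyte mean ended it. The change was then 0.58, 0.53 or 0.55, with adjusted p-values of 0.105, 0.807 and 0.281. Its muscle partner Pgam2 had a change of 0.15 (adjusted p = 0.687).

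The bright enzymes of the last steps, Gapdh, Pgk1, Eno3 (muscle enolase) and Pkm (pyruvate kinase), had log2 changes of 0.03, 0.00, 0.00 and 0.09, all with intervals inside -0.21 to 0.29. Eno2, the enolase of neurons, had 0.28 (interval 0.02 to 0.55, adjusted p = 0.362), and its highest array was Tbx3 array 6 at 7.67. In the same arrays 2 of 8 genes of the neuron and Schwann cell list rose, Sox10 and Uchl1, where 2.97% of all named genes did. The other 6 did not pass, and the list had 5 changes above 0 and 3 below. Those below were Snap25 (-0.05), Stmn2 (-0.13) and Th (-0.08). The list mean ran from 5.48 to 5.62 in Control and from 5.60 to 5.91 in Tbx3 arrays. The part of these cells in the Eno2 values was not tested.

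Both lactate dehydrogenase genes had changes near 0, and lactate transport was not assessed. Ldha, the muscle-type lactate dehydrogenase subunit, ran from 10.20 to 10.74 in Control and from 10.43 to 10.64 in Tbx3 arrays (log2 change 0.01, interval -0.20 to 0.22). Ldhb, the heart-type subunit, ran from 11.26 to 11.54 and from 11.31 to 11.55 (0.03, interval -0.16 to 0.23). The probe for the lactate carrier gene Slc16a1 (MCT1) was at the 2.4th percentile, so it gives no usable level. Bsg, the chaperone of these carriers, had a log2 change of -0.11 (adjusted p = 0.759).

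Windows of 250 bases before the start of transcription are shown for the 2 risers with the clearest separation or the largest change and for the member that fell, as DNA from RefSeq (GRCm38.p6). Capitals mark matches on either strand to the T-box motif GTGTGA, the E-box CACGTG or the core of the hypoxia response element, ACGTG, which the E-box contains. For Slc2a1 the window is chr4:119108495-119108744 on the plus strand, and for Pgam1 chr19:41911621-41911870 on the plus strand. Pfkfb2 has 3 listed starts, and the window of the most downstream one, chr1:130714577-130714826 on the minus strand, is shown because it is the one of the 3 with GTGTGA.
Slc2a1: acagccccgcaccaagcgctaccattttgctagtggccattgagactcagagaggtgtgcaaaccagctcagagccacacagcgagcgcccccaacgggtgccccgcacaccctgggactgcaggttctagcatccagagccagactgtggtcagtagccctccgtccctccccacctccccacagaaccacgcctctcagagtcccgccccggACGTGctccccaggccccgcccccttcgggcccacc
Pgam1: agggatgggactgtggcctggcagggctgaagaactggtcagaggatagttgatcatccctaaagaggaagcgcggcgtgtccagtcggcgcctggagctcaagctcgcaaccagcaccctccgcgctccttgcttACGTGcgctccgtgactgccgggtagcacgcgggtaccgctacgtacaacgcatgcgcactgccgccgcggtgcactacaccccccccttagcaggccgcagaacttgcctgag
Pfkfb2: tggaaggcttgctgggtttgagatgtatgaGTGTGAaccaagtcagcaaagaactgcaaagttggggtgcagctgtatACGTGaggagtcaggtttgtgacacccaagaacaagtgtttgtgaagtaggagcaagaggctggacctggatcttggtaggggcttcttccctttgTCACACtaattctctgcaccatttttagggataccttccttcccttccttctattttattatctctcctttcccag
The Pfkfb2 window held 2 matches to GTGTGA, at 220 and 76 bases before the start, and 1 to ACGTG. The windows of Slc2a1 and Pgam1 each held 1 match to ACGTG and none to GTGTGA, and the window of Pfkp held none of the 3 motifs. Among all 32851 windows 12.3% held GTGTGA, 6.0% CACGTG and 16.6% ACGTG. Among the 46 windows of 31 members the shares were 6.5%, 13.0% and 43.5%. A match of letters is a description of the window only.

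The kinases that switch off pyruvate dehydrogenase gave no call. Pdk2, the widely expressed isozyme, came closest. Its levels were 7.43, 7.79, 7.35, 7.70, 7.87 and 7.51 in Control and 7.35, 7.40, 7.36, 6.89, 6.66 and 7.36 in Tbx3 arrays. Tbx3 arrays 4 and 5 lay well below the Control range and the other 4 at its low end (log2 change -0.44, SE 0.13, adjusted p = 0.0506). Pdk4, the isozyme induced by fasting and fatty acids, split the Control group. It read 8.99, 11.17, 11.42, 9.59, 8.67 and 9.25 in Control and 9.45, 9.82, 9.32, 9.27, 9.42 and 9.25 in Tbx3 arrays. Control arrays 2 and 3 stood above all others and the remaining 4 Control arrays spread around the Tbx3 values, so the change of -0.43 had a wide interval, from -1.04 to 0.19 (adjusted p = 0.675). Pdk1 and Pdk3 had changes of -0.21 and 0.16 (adjusted p of 0.423 and 0.655).

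**Figure D3:**
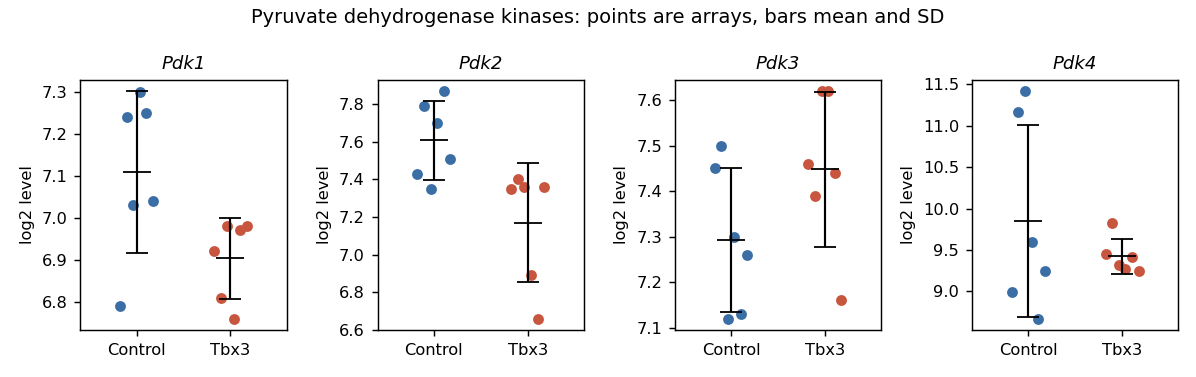
Log2 levels of the 4 pyruvate dehydrogenase kinase genes by array, Control in blue and Tbx3 in red, with the mean and SD of each group as bars and a vertical scale of its own in each panel. The Pdk4 Control arrays spread from 8.67 to 11.42, while the Tbx3 arrays lie between 9.25 and 9.82.

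Downstream of these kinases, 1 of 8 measured genes of pyruvate entry into mitochondria fell and 0 rose. This is 12.5%, against 5.96% of all named genes and 15.4% of the bright ones. Dlat, the acetyltransferase core of pyruvate dehydrogenase, ran from 8.83 to 9.11 in Control and from 8.34 to 8.80 in Tbx3 arrays, without overlap (log2 change -0.45, SE 0.10, adjusted p = 0.00605). The list had 7 changes below 0 and a median of -0.15. Adjusting for the erythroid, fibroblast or cardiomyocyte mean ended the call for Dlat, with changes of -0.42, -0.27 and -0.41 (adjusted p of 0.0803, 0.905 and 0.205).

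None of the 6 glycogen members passed, and 5 of the 6 changes were below 0 (median -0.12). Pygm, the glycogen phosphorylase of muscle, read 8.51, 8.41, 8.56, 8.48, 8.61 and 8.50 in Control and 8.34, 8.35, 8.30, 8.22, 8.25 and 7.81 in Tbx3 arrays. Every Tbx3 array was below every Control array by a narrow margin, and Tbx3 array 6 was far below the rest (log2 change -0.30, SE 0.10, adjusted p = 0.122). Pygb, the brain-type phosphorylase, had -0.03 (adjusted p = 0.963). Gys1, the glycogen synthase of muscle, had -0.15, Gyg, the glycogenin that primes the polymer, -0.17, and Ugp2, which makes UDP-glucose, -0.09 (adjusted p of 0.638, 0.645 and 0.849). The branching enzyme gene Gbe1 was dim, at the 55.6th percentile, with 0.07.

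Larger changes lay in some other genes of glycogen metabolism, outside the 32 genes. Of 18 measured genes of glycogen branching, debranching and regulation, 3 fell and 1 rose (median -0.12). This is 22.2%, against 5.96% of all named genes and 15.4% of those above the 85th percentile of brightness. Phkg1 encodes the muscle catalytic subunit of phosphorylase kinase, which activates phosphorylase. It read 8.11, 8.0, 8.02, 8.13, 8.44 and 8.14 in Control and 7.17, 7.42, 7.18, 7.08, 7.0 and 7.43 in Tbx3 arrays. The gap between the groups exceeded the spread within each, and Phkg1 fell 1.90-fold (log2 change -0.93, SE 0.10, adjusted p = 7.77e-07). Ppp1r3c encodes a subunit that targets protein phosphatase 1 to glycogen and favours its synthesis. Its levels were 11.80, 11.83, 12.68, 11.98, 11.67 and 11.94 in Control and 11.40, 10.78, 11.14, 11.26, 11.18 and 11.42 in Tbx3 arrays. Its groups did not overlap either, with Control array 3 the highest, and it fell 1.72-fold (log2 change -0.79, SE 0.14, adjusted p = 0.000384).

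Pgm1, the phosphoglucomutase that links glucose 1-phosphate and glucose 6-phosphate, ran from 10.58 to 10.87 in Control and from 10.17 to 10.41 in Tbx3 arrays. It fell 1.32-fold without overlap (log2 change -0.40, SE 0.09, adjusted p = 0.00985). The call ended on adjusting for the erythroid mean, with a change of -0.38 (adjusted p = 0.104). Stbd1 encodes a protein that binds glycogen and tethers it to membranes. Its probe was dim, at percentile 73.1, with a Control mean of 5.71 beside a median of 5.55 over all probes. Stbd1 ran from 5.47 to 5.94 in Control and from 6.17 to 6.45 in Tbx3 arrays. It rose 1.52-fold, again without overlap (log2 change 0.60, SE 0.10, adjusted p = 0.000304). Phkg1, Ppp1r3c and Stbd1 kept their calls after adjusting for the erythroid mean and without any single array. With the fibroblast mean as a covariate, under which 98 of 46114 probes passed in all, the changes of Phkg1, Ppp1r3c, Pgm1 and Stbd1 were -0.67, -0.76, -0.35 and 0.42. None of the 4 passed then (adjusted p of 0.165, 0.349, 0.804 and 0.688). The calls of Pgm1 and Stbd1 were also lost with the cardiomyocyte mean (-0.40 and 0.51, adjusted p of 0.201 and 0.0753). The fast skeletal and smooth muscle means given above moved with the groups too, and their part in these changes and in the Pygm values was not tested.
The 250 bases before the start of Ppp1r3c, chr19:36736605-36736854 on the minus strand, are shown for the brightest of these genes and held 1 E-box and 1 further match to ACGTG.
Ppp1r3c: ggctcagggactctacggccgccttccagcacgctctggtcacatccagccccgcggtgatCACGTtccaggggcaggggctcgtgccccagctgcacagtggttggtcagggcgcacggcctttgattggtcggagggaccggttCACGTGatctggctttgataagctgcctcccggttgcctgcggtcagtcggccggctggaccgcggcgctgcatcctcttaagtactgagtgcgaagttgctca

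**Figure D4:**
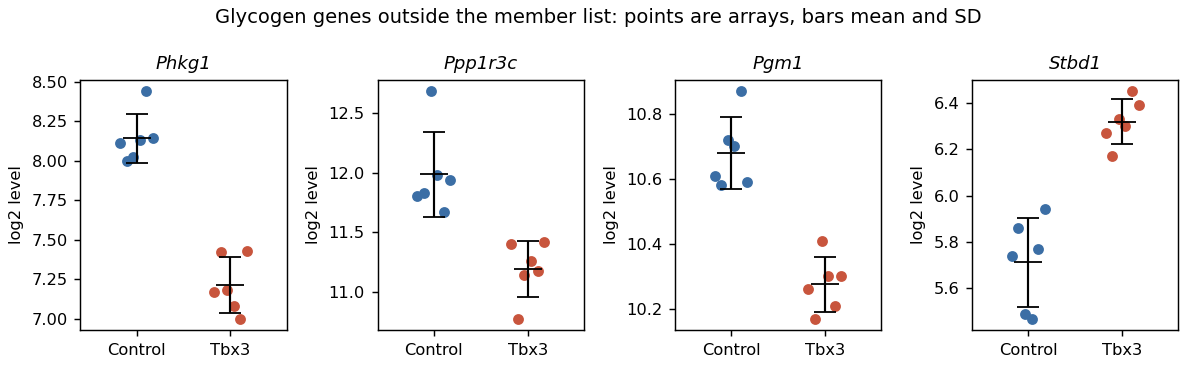
Log2 levels of Phkg1, Ppp1r3c, Pgm1 and Stbd1 by array, Control in blue and Tbx3 in red, with the mean and SD of 6 arrays as bars and a separate vertical scale in each panel. The first 3 genes are lower and Stbd1 higher in every Tbx3 array than in any Control array.

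Muscle or heart isoforms were then set against their partners within each array. The log2 ratio of 2 probes has no meaning as a level, but its change between groups shows whether the pair moved unequally. Of 12 pairs 10 had both genes measured, and 3 differed by a 2-sided exact permutation test with Benjamini-Hochberg adjustment over the 10. Pfkfb2/Pfkfb3 read 2.01, 1.73, 1.46, 2.58, 1.51 and 1.65 in Control and 1.31, 0.82, 1.33, 0.80, 0.51 and 0.74 in Tbx3 arrays. The groups did not overlap, and the ratio changed by -0.91 (exact p = 0.00216, the smallest that 924 splits can give, adjusted p = 0.0216).

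Hk2/Hk1 read 1.41, 1.23, 0.45, 1.03, 0.93 and 1.26 in Control and 0.20, 0.61, 0.49, 0.47, 0.12 and -0.05 in Tbx3 arrays. Control array 3 alone lay among the Tbx3 values, and the ratio changed by -0.74 (exact p = 0.00866, adjusted p = 0.0289). Slc2a4/Slc2a1 read 1.42, 1.41, 1.34, 1.28, 1.89 and 1.64 in Control and 1.05, 1.34, 0.95, 0.98, 0.72 and 0.96 in Tbx3 arrays. Tbx3 array 2 alone reached the Control range, and the ratio changed by -0.50 (exact p = 0.00649, adjusted p = 0.0289). In these 3 pairs the muscle or heart isoform thus fell relative to its partner, while of the 6 genes only Slc2a1 and Pfkfb2 passed by themselves. Several marker means, those of cardiomyocytes and fibroblasts among them, moved with the groups too, and their part in these ratios was not tested. Without Control array 4 and Tbx3 array 6 none of these 3 pairs passed, and the smallest exact p possible is then 0.00794.

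Unequal change was not shown for the other 7 pairs. Pgam2/Pgam1 changed by -0.51 (exact p = 0.0584, adjusted p = 0.117), and Control array 5 stood apart at 5.61. Without that array it changed by -0.29, and without Control array 2 by -0.64, which passed (adjusted p = 0.0289). Pygm/Pygb changed by -0.27 (exact p = 0.0346, adjusted p = 0.0866), with Tbx3 array 6 apart at -2.88. Without that array it changed by -0.13, and without Tbx3 array 2 or 5 it passed, at -0.31 and -0.33 (adjusted p of 0.0379 and 0.0216). The ratios Pfkm/Pfkl, Pfkm/Pfkp, Aldoa/Aldoc, Ldhb/Ldha and Pdk4/Pdk2 changed by -0.16, -0.19, 0.15, 0.03 and 0.01 (adjusted p from 0.195 to 0.989).

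**Figure D5:**
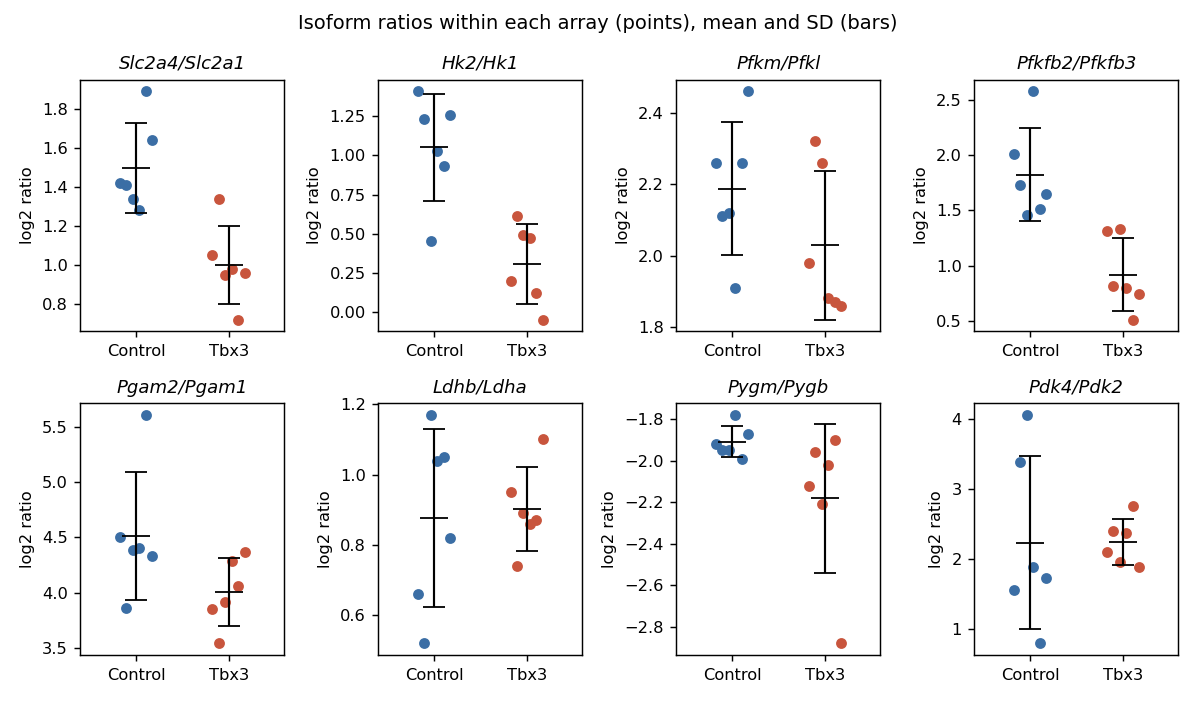
Log2 ratio of 2 isoform probes within each array for 8 of the 10 pairs, Control in blue and Tbx3 in red, with group mean and SD as bars. Panels have their own vertical scales, and the position on a scale is not a ratio of amounts. Pfkfb2/Pfkfb3 separates the groups, whereas Ldhb/Ldha has Tbx3 values between 0.74 and 1.10 inside the Control range.

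Each list of neighbouring routes of glucose held 2 calls or fewer. Among 12 other isozymes and transporters of glucose and lactate 1 rose and 1 fell. The share is 16.7%, against 5.96% of all named genes and 15.4% of bright ones, though the called Slc2a3 was only at percentile 77.5. Slc2a3 (GLUT3, the high-affinity transporter of neurons and blood cells) rose, and Tigar, a phosphatase that lowers fructose 2,6-bisphosphate, fell. Slc2a3 ran from 5.90 to 6.31 in Control and from 6.13 to 6.72 in Tbx3 arrays (log2 change 0.40, adjusted p = 0.0421), a call lost without any one of 9 arrays. Tigar ran from 8.87 to 9.36 and from 8.42 to 8.91 (-0.46, adjusted p = 0.0119), and with the mean of its probes the change was -0.29 and did not pass (adjusted p = 0.128). Both calls ended on adjusting for any of the 3 marker means, and with the fibroblast mean the change of Tigar was -0.05 (adjusted p = 0.993). The median of this list was 0.00.

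Of 10 genes of the redox shuttles that carry the electrons of cytosolic NADH into mitochondria, 1 fell and 0 rose (median -0.16). This is 10%, between the 5.96% of all named genes and the 15.4% of bright ones. It was Slc25a11, the oxoglutarate carrier of the malate-aspartate shuttle, from 8.75 to 9.07 in Control and from 8.04 to 8.65 in Tbx3 arrays (log2 change -0.46, adjusted p = 0.00861). Its call ended on adjusting for the erythroid, fibroblast or cardiomyocyte mean, with changes of -0.38, -0.26 and -0.36 (adjusted p of 0.165, 0.933 and 0.377). None of 6 pentose phosphate genes passed in limma, with 0 at an unadjusted p under 0.05, and the 2 smallest p-values were those of Tkt (0.18, adjusted p = 0.593) and Pgd (-0.18, adjusted p = 0.656).

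Regulators of glucose use showed falls in 2 of 15 genes of insulin signalling and glucose sensing and no rise (median -0.12). This is 13.3%, where 2.99% of all named genes fell and 15.4% of bright ones were called in either direction. Prkab1, a regulatory subunit of AMP-activated kinase, ran from 7.73 to 8.50 in Control and from 7.50 to 7.73 in Tbx3 arrays (-0.47, adjusted p = 0.0206). Mlxipl, which encodes the glucose-sensing factor ChREBP, had a log2 change of -0.44 (adjusted p = 0.0291). Its probe was dim, at the 68.6th percentile, with Tbx3 values from 5.49 to 5.76 beside a median of 5.55 over all probes. Without some single arrays either call was lost, Control 3, Control 5 or Tbx3 5 for Prkab1 and any one of 6 arrays for Mlxipl (adjusted p up to 0.0728 and 0.098). With the erythroid mean Prkab1 had -0.48 (adjusted p = 0.104) and Mlxipl passed, and with the fibroblast or cardiomyocyte mean neither did. With the fibroblast mean Prkab1 was at -0.25 (adjusted p = 0.945) and Mlxipl at -0.41 (adjusted p = 0.836). None of 17 hypoxia response genes outside glycolysis passed in limma. Of these, 4 had an unadjusted p under 0.05, a count with no share of all named genes beside it here. The smallest p-values were those of Kdm3a, a histone demethylase (0.24, adjusted p = 0.248), and Vegfa, the vascular growth factor (-0.28, adjusted p = 0.291), with opposite signs.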

How the data were processed

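Per the labels' protocols, atrial RNA of 12 mice was hybridised to Illumina beadchips. The authors deposited 1 table of 46133 rows, of which 10 empty and 9 repeated rows were dropped, leaving 46114 probes. The deposited values are read as natural logs. They run from 2.63 to 10.81, which gives a top signal of 49513 on the linear scale as natural logs and 1795 in base 2. The authors' normalization is not given in the sources used here, and the interquartile range differed by 20.4% between arrays, so values were divided by ln 2 and quantile-normalized. Symbols came from the platform annotation (29533 probes with 1, 11 with several, 16570 with none), updated through RefSeq. Each gene was represented by its brightest probe. Tests were 2-sided, with limma 3.58.1 in R 4.3.3 (lmFit, eBayes) over all probes and Benjamini-Hochberg adjustment at 0.05. The labels give 6 mice a group. The placement of arrays on beadchips is not given, so no chip block was possible. Detection values were not used here, so dim probes are marked by percentile. Precision is limited by the number of arrays. Tested on simulated data of 46114 probes, the fit found 10% of 1.25-fold changes, 74% of 1.5-fold, 98% of 2-fold and 100% of 3-fold ones. Of its 146 calls there, 5 were false. The fit reported made 1592 calls, so the cutoff on the unadjusted p was stricter in the simulation. The shares found are therefore not those of the fit reported. Isoform ratios used exact permutation tests.

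The members, gene lists and tests were chosen with earlier results of these data known. All measured members are named, with full statistics for those past the threshold. Of each related list, genes past the threshold are named, or the 2 with the smallest p where none passed. Alternatives covered normalization, dim probes, array weights, variance model, replicate block, probes of a gene, threshold, log base, marker covariates and left-out arrays. The fibroblast and cardiomyocyte covariates were added after seeing the data.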

Additional observations from a re-analysis of the deposited data

Results flagged for a closer look

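In 9 of 104 groups of 6 arrays, 1 array stood apart from the others: its gap to the nearest array was more than 0.625 of the group's range (Dixon's criterion), which chance gives in about 1 group in 20. Among levels of the members, Slc2a4 had Tbx3 array 2 high at 8.81, Eno3 had Control array 5 high at 12.05 and Pkm had Control array 3 low at 10.75. Pdk4 had Tbx3 array 2 high within its group at 9.82, and Pygm had Tbx3 array 6 low at 7.81. Outside the members, Phkg1 had Control array 5 high at 8.44 and Ppp1r3c had Control array 3 high at 12.68. Of the isoform ratios, Pgam2/Pgam1 had Control array 5 high at 5.61 and Pygm/Pygb had Tbx3 array 6 low at -2.88.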

How the results depend on the processing

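Among the 32 genes, 4 passed in the fit reported. The count was 8 with probes above the median brightness only, 9 with the brightest 25% of probes, 8 with an intensity trend and the robust option, and 2 at an adjusted p of 0.01. It was 1 with the erythroid mean, 0 with the fibroblast mean and 0 with the cardiomyocyte mean as a covariate. Over all probes, 1592 passed in the fit reported, 896 at 0.01, and 776, 98 and 426 with those covariates in the same order. The marker means moved with the groups, and the cause of the lost calls was not tested. Leaving out 1 array at a time gave 2 to 5 members, 1208 to 1619 probes and 3 to 4 isoform pairs. Of the 3 isoform pairs, 0 passed at 0.01, and 0 without Control array 4 and Tbx3 array 6, where 5 against 5 arrays allow no exact p below 0.00794. Isoform pairs have no values for array weights, the intensity trend or the covariates. No result reversed. Over single members and alternatives, 768 values kept their side of the threshold, 27 passed newly and 33 no longer passed.

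The replicate numbers share only a number: correlations of same-numbered deviations ran from -0.072 to 0.087, and 1 of 6 numbers matched its own best. With the replicate number as a block, 4 members passed, with Hk1 in and Slc2a1 out (adjusted p = 0.0573), and 0 isoform pairs did, where 6 sign flips allow no p below 0.0312.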

Other observations

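The split of the Control group in Pdk4, with Control arrays 2 and 3 at 11.17 and 11.42 and the other 4 from 8.67 to 9.59, was set beside other genes of fatty acid use, chosen after its values were seen. Acadl, a dehydrogenase of fatty acid oxidation picked because it resembled Pdk4, read 9.36 and 9.63 in Control arrays 2 and 3 and from 8.74 to 9.13 in the other Control arrays. Cd36, the fatty acid transporter, read 7.34 and 8.19 in Control arrays 2 and 3 and from 7.03 to 7.59 in the other Control arrays. Cpt1a, which brings fatty acids into mitochondria, read 5.60 and 5.95 there and from 5.56 to 6.53 in the others. Angptl4, a lipase inhibitor induced by fasting, read 5.61 and 5.75 there and from 5.34 to 5.72 in the others, at the 54.8th percentile of brightness. Ucp3, a mitochondrial carrier induced by fasting in muscle, read 5.60 and 5.68 there and from 5.55 to 6.17 in the others, at the 55.6th percentile.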
